A study of Mus musculus with 15 samples.

Results

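Calprotectin and 6 further genes of neutrophils were followed in colon tissue of 15 mice with dextran sulfate sodium colitis. The 8 genes, of 55335 in the deposited values, were S100a8, S100a9, Csf3r, Il1r2, Retnlg, Clec4d, Cxcr2 and Trem1. They were listed by name, after results of the same mice had been seen. The genes were chosen by their levels in DSS_ICB mice against DSS mice and in DSS_ICB_Fp mice against DSS_ICB mice, so those differences are given as a description with no test. DSS_ICB_Fp mice received dextran sulfate sodium (DSS, a polymer that injures the colon lining and inflames it), immune checkpoint blockade (ICB, treatment that releases T cells from inhibitory receptors) and a gavage of Faecalibacterium prausnitzii, a butyrate-producing gut bacterium. DSS_ICB mice received DSS and the blockade, and DSS mice received DSS alone, with 5 mice in each group. Every mouse therefore had DSS, and no group without it is described here. Which antibodies were used, whether controls had an antibody or a sham gavage, and the strain, age, cages and days of treatment are not given in the sources used here, so an effect of blockade or bacterium cannot be told apart from that of its procedure or cage.

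Neutrophils are short-lived granulocytes that leave the bone marrow and enter injured tissue, where they are a leading cell type of the acute phase of DSS colitis. S100a8 and S100a9 encode the 2 subunits of calprotectin, an abundant cytosolic protein of neutrophils that binds calcium, zinc and manganese, and whose faecal level is used as a clinical measure of gut inflammation. Csf3r encodes the receptor for G-CSF, the growth factor of the neutrophil lineage, and Cxcr2 the chemokine receptor by which neutrophils leave marrow and enter tissue. Il1r2 encodes the decoy receptor that binds interleukin-1 without signalling. Clec4d and Trem1 encode surface receptors of myeloid cells that signal through partner adaptors. Retnlg encodes resistin-like gamma, a secreted protein, so the label of surface genes covers 5 of the 8. In whole colon, fewer neutrophils and less RNA per neutrophil cannot be told apart.

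S100a8 and S100a9 lie on mouse chromosome 3 and are transcribed in opposite directions. In GRCm38 (the same assembly as mm10), S100a8 (ENSMUSG00000056054) spans chr3:90668978-90670035 on the + strand and S100a9 (ENSMUSG00000056071) spans chr3:90692632-90695721 on the - strand, with 22596 bases between them. The windows from 250 bases before to 50 bases after each start in RefSeq (build GRCm38.p6) are shown because the levels of these genes moved together across mice. They are chr3:90668821-90669120 for S100a8 and chr3:90695672-90695971 for S100a9, each written 5′ to 3′ on the strand of its gene. Capitals mark matches to a TATA box (TATAAA), a C/EBP motif (TTNNGNAA) or a PU.1 motif (GAGGAA), searched on both strands.
S100a8: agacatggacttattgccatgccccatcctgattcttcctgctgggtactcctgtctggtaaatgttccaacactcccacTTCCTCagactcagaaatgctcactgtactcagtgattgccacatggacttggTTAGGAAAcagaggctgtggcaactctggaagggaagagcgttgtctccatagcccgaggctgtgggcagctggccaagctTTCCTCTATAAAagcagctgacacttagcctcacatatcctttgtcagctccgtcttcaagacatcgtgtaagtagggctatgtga
S100a9: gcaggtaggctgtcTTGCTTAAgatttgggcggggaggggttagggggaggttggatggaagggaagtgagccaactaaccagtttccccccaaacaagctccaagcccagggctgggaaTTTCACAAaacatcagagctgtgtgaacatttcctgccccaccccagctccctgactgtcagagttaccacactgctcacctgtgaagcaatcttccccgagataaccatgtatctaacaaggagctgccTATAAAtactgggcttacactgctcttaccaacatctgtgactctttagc
In the S100a8 window, a reverse PU.1 match directly precedes the TATA match without overlapping it. The TATA match was in 2 of the 8 genes' windows, these 2, against 13.6% of the 32851 RefSeq windows of the same length. It began at -30 bases from the RefSeq start in S100a8 and at 0, on the start base itself, in S100a9. C/EBP matches were in 5 of 8 windows, against 40.7% of all, and PU.1 matches in 5 of 8, against 28.3%. Such matches describe letters and are not evidence of binding.

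The other 6 genes are spread over 5 chromosomes. Csf3r (ENSMUSG00000028859) lies at chr4:126024550-126044440, Il1r2 (ENSMUSG00000026073) at chr1:40074079-40125231 and Cxcr2 (ENSMUSG00000026180) at chr1:74153989-74161246. Retnlg (ENSMUSG00000022651) lies at chr16:48872621-48874496, Clec4d (ENSMUSG00000030144) at chr6:123262111-123275265 and Trem1 (ENSMUSG00000042265) at chr17:48232768-48246924. All 6 are on the + strand, and all 8 genes are protein-coding.

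Levels are in FPKM, which count fragments relative to transcript length and to the size of each library, and were computed by the authors. The depth is not stated with the values and was estimated from their smallest steps at 15.44 to 25.0 M (mega) fragments per library, if no further scaling was applied. Libraries DSS_ICB 3 and DSS_ICB 5 stood apart from the rest. Their median rank correlations with the other libraries were 0.725 and 0.864, against at least 0.922 for each of the other 13, and mitochondrial transcripts held 33.2% of the FPKM in DSS_ICB 3. Results are therefore also given without these 2 libraries. Differences are log2 changes of FPKM + 1 with their standard error (SE) from 1 limma fit to all 15 libraries, a scale that understates the change of low genes. A gene was called when its adjusted p was under 0.05 over the 14385 genes tested, which had at least 1 FPKM in at least 5 libraries. All 8 genes passed this filter, but Il1r2, Cxcr2 and Trem1 passed through their levels in DSS_ICB mice, so counts over the 8 support nothing by themselves.

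Calprotectin transcripts were the most abundant of the 8 in DSS_ICB and DSS mice. S100a8 was listed at 0.389, 0, 0.812, 9.30 and 0 FPKM in DSS_ICB_Fp mice 1 to 5. It was 64.5, 35.3, 592.8, 52.2 and 218.1 FPKM in DSS_ICB mice and 15.9, 10.1, 4.22, 11.8 and 6.80 FPKM in DSS mice. Every DSS_ICB mouse was above every mouse of both other groups, and DSS_ICB_Fp mice lay below all DSS mice except for mouse 4. The log2 change was -5.85 ± 0.75 in DSS_ICB_Fp against DSS_ICB mice and 3.47 ± 0.75 in DSS_ICB against DSS mice (SE, n = 5 each). In DSS_ICB_Fp mice 1 and 3 the S100a8 level corresponded to about 3.8 and 7.7 fragments, so these low levels carry a large counting error.

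S100a9, the partner subunit, had the same arrangement at higher values. It was listed at 1.67, 0.833, 3.23, 16.3 and 0 FPKM in DSS_ICB_Fp mice, 132.8, 72.4, 1228.1, 85.7 and 519.5 FPKM in DSS_ICB mice and 30.7, 22.7, 7.80, 18.1 and 12.6 FPKM in DSS mice. DSS_ICB mice again overlapped neither of the other groups, and DSS_ICB_Fp mouse 4 again lay within the range of DSS mice. The log2 change was -6.10 ± 0.81 in DSS_ICB_Fp against DSS_ICB mice and 3.66 ± 0.81 in DSS_ICB against DSS mice. The medians of S100a9 were 79.8-fold lower in DSS_ICB_Fp than in DSS_ICB mice and 7.33-fold higher in DSS_ICB than in DSS mice. Without DSS_ICB 3 and 5, the changes in the same comparisons were -4.87 and 2.43 for S100a9 and -4.71 and 2.33 for S100a8.

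The ratio of S100a9 to S100a8 was narrow wherever both genes were well covered. It was 2.06, 2.05, 2.07, 1.64 and 2.38 in DSS_ICB mice and 1.93, 2.24, 1.85, 1.54 and 1.85 in DSS mice, although S100a8 itself spanned a 16.8-fold range among DSS_ICB mice. These 2 ranges overlap. The ratio could be formed in 3 DSS_ICB_Fp mice, where it was 4.28 in mouse 1, 3.97 in mouse 3 and 1.76 in mouse 4. The lowest of these belongs to the mouse with the most calprotectin transcript, and the other 2 rest on few S100a8 fragments.

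**Figure D1:**
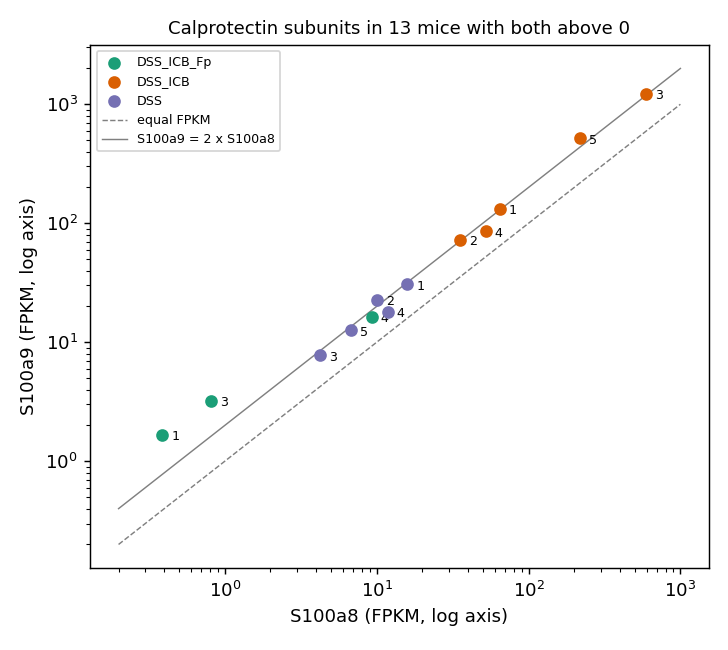
S100a9 against S100a8 in FPKM, both on log axes, for the 13 mice in which both were above 0; numbers are the mice within their group, and the lines mark equal levels and S100a9 at 2 times S100a8. DSS_ICB and DSS mice lie close to the upper line, with ratios of 1.54 to 2.38, and DSS_ICB_Fp mice 1 and 3 lie above it at 4.28 and 3.97.

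Csf3r, the G-CSF receptor, was 0.661, 0.350, 1.41, 1.16 and 0.183 FPKM in DSS_ICB_Fp mice. It was 6.49, 4.33, 29.2, 2.93 and 22.4 FPKM in DSS_ICB mice and 2.58, 1.54, 1.71, 1.74 and 2.38 FPKM in DSS mice. The 3 groups did not overlap, with DSS_ICB mice on top and DSS_ICB_Fp mice at the bottom. The log2 change of Csf3r was -2.59 ± 0.46 in DSS_ICB_Fp against DSS_ICB mice and 1.79 ± 0.46 in DSS_ICB against DSS mice. Its ligand gene Csf3, below the filter, was listed at 0.253, 0.154, 2.88, 0.293 and 5.31 FPKM in DSS_ICB mice, at 0 in all but mouse 4 (0.0888 FPKM) of the DSS_ICB_Fp group and at 0 in all but mouse 4 (0.0485 FPKM) of the DSS group.

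Cxcr2, the receptor for Cxcl1, Cxcl2 and Cxcl5, was 0.229, 0.0791, 0.149, 0.560 and 0.0195 FPKM in DSS_ICB_Fp mice. It was 3.20, 1.69, 11.8, 0.950 and 8.76 FPKM in DSS_ICB mice and 1.06, 0.730, 0.328, 0.526 and 0.499 FPKM in DSS mice. DSS_ICB_Fp and DSS_ICB mice did not overlap, whereas DSS_ICB mouse 4 lay below DSS mouse 1. The log2 change was -2.03 ± 0.41 in DSS_ICB_Fp against DSS_ICB mice and 1.60 ± 0.41 in DSS_ICB against DSS mice.

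Il1r2, the interleukin-1 decoy receptor, was 0.228, 0.0949, 0.354, 1.61 and 0.432 FPKM in DSS_ICB_Fp mice. It was 4.60, 3.41, 18.8, 1.46 and 11.2 FPKM in DSS_ICB mice and 1.14, 0.590, 0.574, 0.663 and 0.455 FPKM in DSS mice. DSS_ICB mice lay above all DSS mice, but DSS_ICB_Fp mouse 4 lay above DSS_ICB mouse 4. The log2 change of Il1r2 was -2.22 ± 0.44 in DSS_ICB_Fp against DSS_ICB mice and 2.03 ± 0.44 in DSS_ICB against DSS mice. Il1r1, which encodes the signalling receptor, had means of 3.73 FPKM in DSS_ICB_Fp, 9.61 FPKM in DSS_ICB and 3.54 FPKM in DSS mice, with DSS_ICB 3 and 5 at 16.2 and 17.3 FPKM and the other DSS_ICB mice at 3.75 to 5.67 FPKM.

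After calprotectin, Retnlg had the highest median in DSS_ICB and DSS mice. It was 0.875, 0.505, 2.69, 2.57 and 0.990 FPKM in DSS_ICB_Fp mice, 14.4, 7.68, 120.2, 14.2 and 59.0 FPKM in DSS_ICB mice and 4.62, 3.48, 4.01, 3.16 and 4.49 FPKM in DSS mice. As with Csf3r, the 3 groups did not overlap. The log2 change was -3.52 ± 0.56 in DSS_ICB_Fp against DSS_ICB mice and 2.46 ± 0.56 in DSS_ICB against DSS mice. Its relatives Retnla and Retnlb, whose sequences are similar enough that shared reads may blur them, had no such order. Retnla averaged 16.9, 14.3 and 21.1 FPKM and Retnlb 8.08, 6.73 and 6.23 FPKM in DSS_ICB_Fp, DSS_ICB and DSS mice.

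Clec4d, a C-type lectin receptor of myeloid cells that signals with the Fc receptor gamma chain encoded by Fcer1g, was 0.307, 0.533, 0.960, 2.56 and 0.271 FPKM in DSS_ICB_Fp mice. It was 5.80, 5.04, 28.5, 4.62 and 26.4 FPKM in DSS_ICB mice and 2.17, 2.58, 2.16, 1.07 and 1.84 FPKM in DSS mice. DSS_ICB mice overlapped neither other group. The log2 change was -2.67 ± 0.46 in DSS_ICB_Fp against DSS_ICB mice and 1.96 ± 0.46 in DSS_ICB against DSS mice. Trem1, an amplifier of myeloid activation that signals with the adaptor encoded by Tyrobp, was the lowest of the 8 in DSS_ICB_Fp and DSS mice. It was listed at 0.0172, 0, 0.0533, 0.328 and 0 FPKM in DSS_ICB_Fp mice, 3.57, 1.85, 14.9, 0.781 and 13.4 FPKM in DSS_ICB mice and 0.524, 0.395, 0.243, 1.17 and 0.339 FPKM in DSS mice. All DSS_ICB_Fp mice were below all DSS_ICB mice, while DSS_ICB mouse 4 lay below DSS mouse 4. The log2 change of Trem1 was -2.37 ± 0.48 in DSS_ICB_Fp against DSS_ICB mice and 1.89 ± 0.48 in DSS_ICB against DSS mice.

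**Figure D2:**
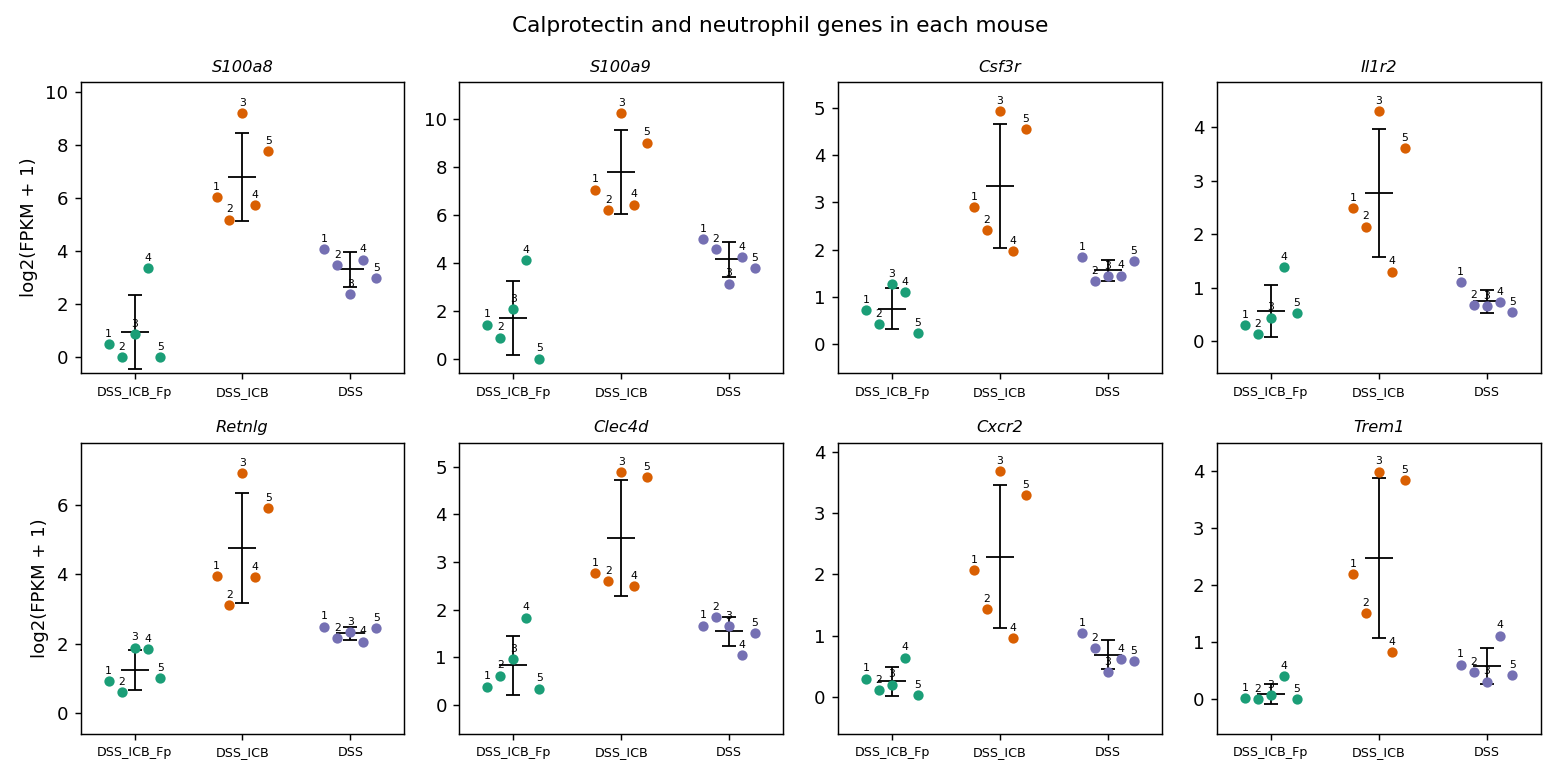
Level of each of the 8 genes in each mouse as log2(FPKM + 1), with groups along the horizontal axis; points are mice with their number, and bars are the group mean ± SD (n = 5). In each panel DSS_ICB 3 and DSS_ICB 5 are the highest points, and DSS_ICB_Fp mouse 4 is the highest of its group in 6 of the 8 panels.

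In DSS_ICB against DSS mice, 6 of the 8 genes had groups that did not overlap, all with DSS_ICB higher, where 1.21% of the 14385 genes tested had this pattern. None was called by limma after adjustment, where 0.0209% of genes were called higher. All 8 had an unadjusted p under 0.05, where 7.08% of genes did in the higher direction. In DSS_ICB_Fp against DSS_ICB mice, 7 of the 8 did not overlap, all with DSS_ICB_Fp lower, against 2.46% of genes. Of the 8, limma called S100a8, S100a9, Csf3r, Retnlg and Clec4d lower, against 0.125% of all genes, and 0.00695% of genes were called higher. With 1 library left out, the number of the 8 called lower was 8 without DSS_ICB 1, 2 or 4 or DSS_ICB_Fp 4, 3 without DSS_ICB 3 or any DSS mouse, and 2 without DSS_ICB 5 or DSS_ICB_Fp 1, 2, 3 or 5. Since these comparisons chose the genes, nothing is read from these shares. The median log2 change over the 8 genes was -2.63 in DSS_ICB_Fp against DSS_ICB mice and 1.99 in DSS_ICB against DSS mice, beside -0.04 and 0.02 over all genes tested.

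Without DSS_ICB 3 and 5, the same 7 genes did not overlap in DSS_ICB_Fp against DSS_ICB mice, with a median change of -1.73, and the same 6 in DSS_ICB against DSS mice, with a median of 1.15. These libraries therefore set much of the size of the differences, and the order of the groups did not rest on them. The 2 comparisons share the DSS_ICB mice, so high values there enter both.

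The comparison of DSS_ICB_Fp with DSS mice shares its mice with those that chose the genes, which were listed with all 3 groups in view, so it too is given as a description. None of the 8 was called by limma, with an adjusted p of 1.0 for each, and 0% of genes were called in either direction. S100a8 and S100a9 had the largest differences, with log2 changes of -2.38 ± 0.75 and -2.44 ± 0.81, both lower in 4 of the 5 DSS_ICB_Fp mice than in any DSS mouse. These were the 2 of 8 with an unadjusted p under 0.05, where 0.82% of genes were lower and 0.591% higher at that level.

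Retnlg and Csf3r were lower in all 5 DSS_ICB_Fp mice than in any DSS mouse, a pattern held by 0.195% of genes, at log2 changes of -1.06 ± 0.56 and -0.81 ± 0.46. The changes were -0.71 ± 0.46 for Clec4d, -0.49 ± 0.48 for Trem1, -0.43 ± 0.41 for Cxcr2 and -0.19 ± 0.44 for Il1r2, so for the last 3 the difference was about the size of its SE or less. All 8 changes were below 0, with a median of -0.76. Nothing is read from these counts and shares, and a difference that misses the threshold does not show that the groups are alike.

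**Figure D3:**
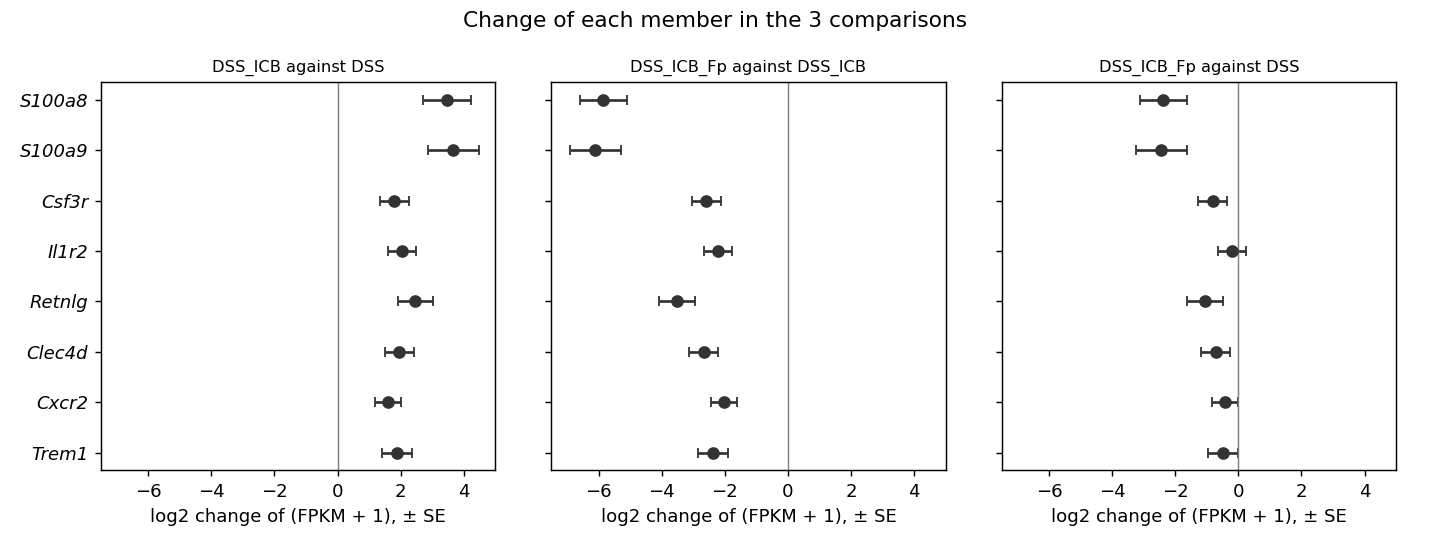
Log2 change of FPKM + 1 for each gene in the 3 comparisons; points are the fitted change and bars ± SE (n = 5 mice per group). Changes run from 1.60 to 3.66 in DSS_ICB against DSS mice, from -6.10 to -2.03 in DSS_ICB_Fp against DSS_ICB mice and from -2.44 to -0.19 in DSS_ICB_Fp against DSS mice.

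The 8 genes ranked the DSS_ICB mice in nearly the same order. Among DSS_ICB mice, mouse 3 was highest, mouse 5 next and mouse 1 after it for 8 of 8 genes. The lowest was mouse 4 for 5 genes and mouse 2 for 3. Among DSS_ICB_Fp mice, mouse 4 was highest for 6 genes and mouse 3 for Csf3r and Retnlg. The lowest of them was mouse 5 for 4 genes and mouse 2 for 2, and both were listed at 0 for S100a8 and Trem1. Among DSS mice, mouse 1 was highest for 6, but mouse 2 took every rank from highest to lowest, and mouse 4 was highest for 1 gene and lowest for 2. On the log2(FPKM + 1) scale, the SD was widest in DSS_ICB mice for each of the 8, at 1.17 (Cxcr2) to 1.77 (S100a9), against 0.17 (Trem1) to 1.55 (S100a9) in DSS_ICB_Fp mice and 0.19 (Retnlg) to 0.72 (S100a9) in DSS mice. As a ratio of the highest to the lowest mouse, DSS_ICB_Fp mice were wider than DSS_ICB mice for Cxcr2 (28.8 against 12.4), Il1r2 (16.9 against 12.9) and Clec4d (9.46 against 6.16), all at low levels. The ratio ran from 1.46 (Retnlg) to 4.81 (Trem1) in DSS mice.

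Pairwise Pearson correlations of log2(FPKM + 1) among the 8 genes were 0.904 to 0.995 over the 15 libraries, with a median of 0.953 over 28 pairs. They were 0.783 to 0.991 without DSS_ICB 3 and 5. After subtracting each group's mean they were 0.756 to 0.978, so the genes also varied together among mice of the same group. All values of a mouse come from the same library, and these correlations are given without a test.

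Outside the 8, the 10 genes most like their mean profile over the 15 libraries, leaving out predicted gene models, were Cd300ld (r = 0.985), Cxcl2 (0.983), Il1b (0.982), Lilrb4a (0.976), Lilr4b (0.974), Acod1 (0.966), Ednra (0.959), Adam8 (0.957), Lcn2 (0.956) and Osm (0.956). Without DSS_ICB 3 and 5 their r was 0.856 (Ednra) to 0.970 (Il1b). At least Cxcl2, Acod1 and Osm passed the filter through DSS_ICB mice, where the 8 genes were also high. The r of such genes supports nothing by itself. Acod1, which encodes the itaconate-making enzyme of activated myeloid cells, was 0.0228 to 0.907 FPKM in DSS_ICB_Fp, 2.12 to 102.1 FPKM in DSS_ICB and 0.377 to 1.34 FPKM in DSS mice. Osm, the cytokine oncostatin M, was 0.0258 to 0.275 FPKM in DSS_ICB_Fp, 1.29 to 16.3 FPKM in DSS_ICB and 0.0277 to 0.459 FPKM in DSS mice. Lilrb4a and Lilr4b are near-identical inhibitory receptor genes whose reads may not be separable.

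The ligands of these receptors included 2 of the genes in that group of 10. Cxcl2, a neutrophil-attracting ligand of Cxcr2, was 0.0902, 0.204, 0.112, 1.48 and 0.0262 FPKM in DSS_ICB_Fp mice, 15.2, 9.14, 112.2, 4.80 and 102.4 FPKM in DSS_ICB mice and 1.05, 0.825, 0.790, 2.28 and 1.64 FPKM in DSS mice. DSS_ICB mice were above all others. Cxcl2 fell in DSS_ICB_Fp against DSS_ICB mice, with a log2 change of -4.30 ± 0.68 (limma adjusted p = 0.0229), and differed by 3.51 ± 0.68 in DSS_ICB against DSS mice without passing (adjusted p = 0.247). Cxcl2 passed the filter through its levels in DSS_ICB mice, so its call supports nothing by itself. Il1b, which encodes interleukin-1 beta and is bound by the Il1r2 decoy, was 2.98, 0.462, 3.74, 7.11 and 0.963 FPKM in DSS_ICB_Fp mice, 39.3, 20.8, 160.1, 19.9 and 210.7 FPKM in DSS_ICB mice and 6.67, 5.91, 4.02, 8.20 and 5.15 FPKM in DSS mice. Il1b fell by 4.09 ± 0.63 in DSS_ICB_Fp against DSS_ICB mice (limma adjusted p = 0.0229), and the change in DSS_ICB against DSS mice was 3.07 ± 0.63 (adjusted p = 0.247). In DSS_ICB_Fp against DSS_ICB mice with 1 library left out, the adjusted p was 0.00552 to 0.0952 for Cxcl2 and 0.00932 to 0.0861 for Il1b. Both were over 0.05 without DSS_ICB_Fp 1, 2, 3 or 5, as was Cxcl2 without DSS_ICB 5 and Il1b without DSS_ICB 3.

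Of the 8 ligand genes tested, of 11 listed, these 2 were called lower in DSS_ICB_Fp against DSS_ICB mice, with a median over the 8 of -2.06, and 5 were lower at an unadjusted p under 0.05, as were 12.4% of all genes. None was called in DSS_ICB against DSS mice, where the median was 1.21 and 4 of the 8 were higher at an unadjusted p under 0.05, as were 7.08% of all genes, or in DSS_ICB_Fp against DSS mice, where 0 of the 8 did. Cxcl2 and Il1a passed the filter through DSS_ICB mice, and the list was made with earlier results known, so nothing is read from these counts. Cxcl1 averaged 0.743 FPKM in DSS_ICB_Fp, 5.99 FPKM in DSS_ICB and 1.68 FPKM in DSS mice (limma adjusted p = 0.0609 for DSS_ICB_Fp against DSS_ICB). Il1a averaged 0.364, 13.7 and 0.534 FPKM in those groups (adjusted p = 0.0802). Cxcl5 in DSS_ICB_Fp mouse 4, at 26.4 FPKM, lay above 3 of the 5 DSS_ICB mice. Il1rn, which encodes the interleukin-1 receptor antagonist, averaged 6.98 FPKM in DSS_ICB_Fp, 12.4 FPKM in DSS_ICB and 8.11 FPKM in DSS mice, and Pf4, a platelet chemokine gene, averaged 15.9, 20.7 and 17.1 FPKM. Neither passed in any comparison. Pglyrp1, whose product is a ligand of TREM1 in humans, averaged 114.8 FPKM in DSS_ICB_Fp, 120.5 FPKM in DSS_ICB and 106.0 FPKM in DSS mice.

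**Figure D4:**
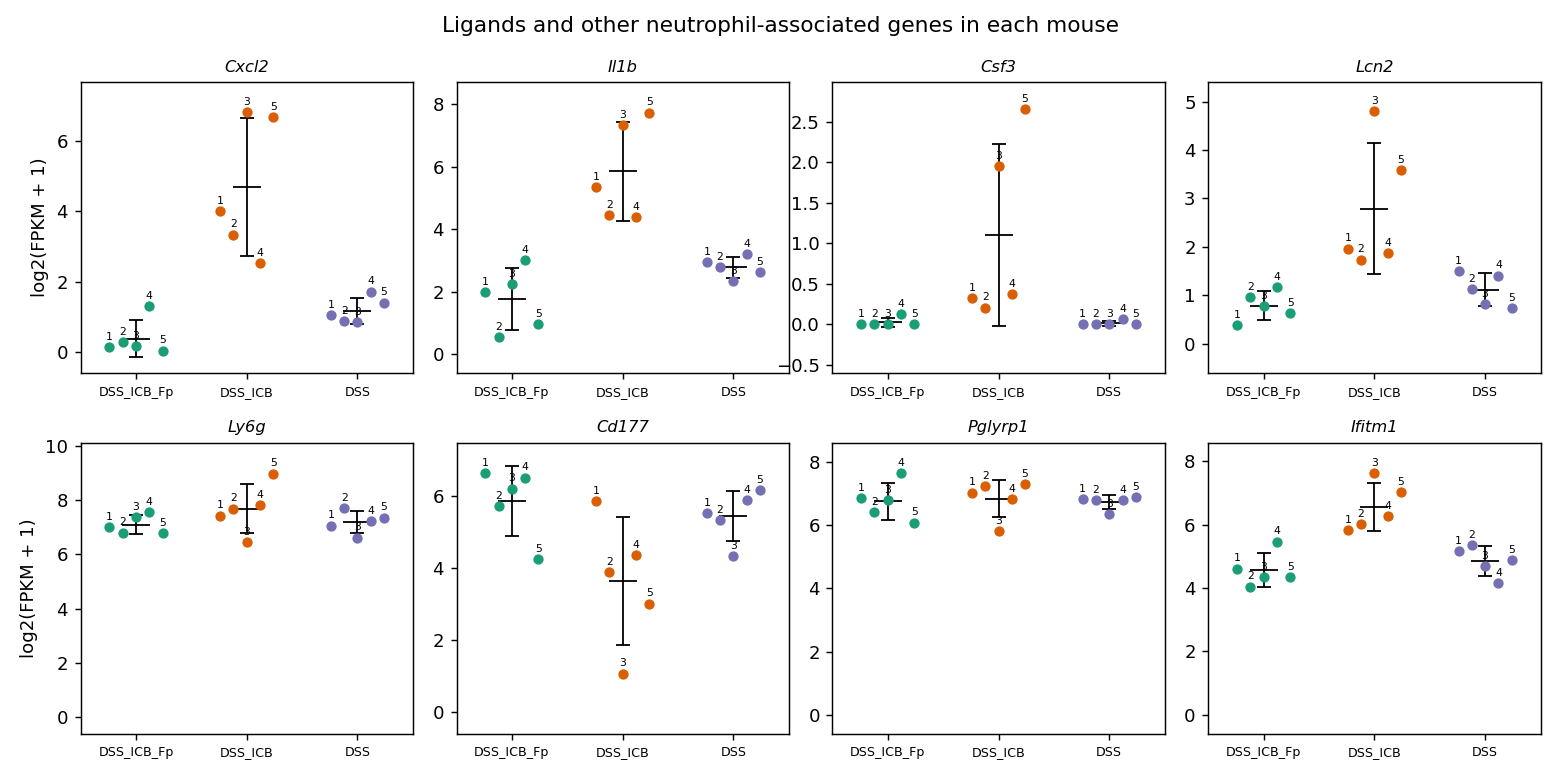
Level of 8 ligand and neutrophil-associated genes in each mouse as log2(FPKM + 1), with groups along the horizontal axis; points are mice with their number, and bars are the group mean ± SD (n = 5). Cxcl2, Il1b and Ifitm1 have all DSS_ICB mice above all others, whereas Ly6g in DSS_ICB 3, at 87.2 FPKM, is the lowest of the 15 mice.

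Most other genes that mark neutrophils were also lower in DSS_ICB_Fp than in DSS_ICB mice, and some ran otherwise. Of 38 further surface and identity genes, 25 were tested, with a median log2 change of -1.04 in DSS_ICB_Fp against DSS_ICB mice and 0.55 in DSS_ICB against DSS mice. In DSS_ICB_Fp against DSS_ICB mice, 18 of the 25 were lower and 2 higher at an unadjusted p under 0.05, against 12.4% and 9.34% of all genes, and 11 were lower with no overlap, against 2.46%. In DSS_ICB_Fp against DSS mice none was called and 1 was lower at an unadjusted p under 0.05. Ifitm1, an interferon-induced membrane protein gene, was the only member of this list that was called, in DSS_ICB_Fp against DSS_ICB mice. It was 23.4, 15.5, 19.2, 43.0 and 19.3 FPKM in DSS_ICB_Fp mice, 55.9, 63.8, 195.5, 76.6 and 128.7 FPKM in DSS_ICB mice and 34.6, 39.9, 25.0, 16.8 and 28.6 FPKM in DSS mice, with a log2 change of -2.00 ± 0.35 (limma adjusted p = 0.034). With 1 library left out, the adjusted p of Ifitm1 was 0.0118 to 0.134, and it was over 0.05 without DSS_ICB 3 or 5, without DSS_ICB_Fp 1, 2, 3 or 5 and without DSS 1, 2, 3 or 5. None was called in DSS_ICB against DSS mice, where 9 were higher and 2 lower at an unadjusted p under 0.05, against 7.08% and 4.22% of all genes. The list was made with earlier results known, and at least Acod1 and Fpr2 on it passed the filter through DSS_ICB mice. Nothing is read from these counts and shares.

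Ly6g, the surface antigen by which mouse neutrophils are usually defined, was 126.6, 110.5, 163.4, 186.7 and 109.2 FPKM in DSS_ICB_Fp mice, 170.5, 204.1, 87.2, 226.0 and 501.7 FPKM in DSS_ICB mice and 131.9, 207.4, 97.3, 148.6 and 162.4 FPKM in DSS mice. It was thus abundant in both mice in which S100a8 was listed at 0, and lowest in the mouse with the most calprotectin transcript. That mouse, DSS_ICB 3, also had the lowest sum of colon epithelium markers, at 730.9 FPKM. Which cells gave the Ly6g transcripts was not tested, so they are not read as a measure of neutrophils. The correlation of Ly6g with the mean profile of the 8 genes was 0.370 over all libraries. It was 0.648 without the DSS_ICB libraries that stood apart from the rest. Cd177 and Ceacam10, a further pair on the same list, ran the other way, with r of -0.749 and -0.864 over all libraries. Without those DSS_ICB libraries their r was -0.239 and -0.681. The r of Ly6g and of Cd177 therefore depended much on those libraries. Cd177, a neutrophil surface glycoprotein gene, was 98.9, 51.5, 72.9, 90.4 and 18.1 FPKM in DSS_ICB_Fp mice, 57.2, 13.8, 1.10, 19.5 and 7.08 FPKM in DSS_ICB mice and 45.1, 39.4, 19.1, 58.3 and 70.7 FPKM in DSS mice. Mxd1, a transcriptional repressor gene on this list, averaged 56.7 FPKM in DSS_ICB_Fp, 43.9 FPKM in DSS_ICB and 56.8 FPKM in DSS mice. Neither Cd177 (limma adjusted p = 0.115) nor Ceacam10 (0.0851) passed in DSS_ICB_Fp against DSS_ICB mice.

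Granule protein genes ranged from absent to abundant. Those that neutrophils transcribe early in marrow maturation were at or near 0. Elane and Ctsg were listed at 0 in all 15 libraries, and Mpo and Prtn3 did not exceed 0.0518 and 0.316 FPKM. Of later granule genes, Camp and Ngp reached at most 0.244 and 0.567 FPKM, both in DSS_ICB 3, and Ltf, the lactoferrin gene, at most 1.44 FPKM. Lyz2, Pglyrp1 and Slpi, which other colon cells also express, were abundant throughout. Lyz2, the lysozyme gene, averaged 198.3 FPKM in DSS_ICB_Fp, 340.9 FPKM in DSS_ICB and 300.0 FPKM in DSS mice, and Slpi, a protease inhibitor gene, averaged 75.4, 104.6 and 72.6 FPKM, with adjusted p of at least 0.366 for both in DSS_ICB_Fp against DSS_ICB and DSS_ICB against DSS mice. The late granule gene Mmp9 averaged 0.566 FPKM in DSS_ICB_Fp, 5.02 FPKM in DSS_ICB and 0.932 FPKM in DSS mice (limma adjusted p = 0.0705 for DSS_ICB_Fp against DSS_ICB). Lcn2, a siderophore-binding protein gene also expressed by inflamed epithelium, averaged 0.757, 9.14 and 1.22 FPKM in those groups (adjusted p = 0.0754). Of the 14 granule genes, 6 were tested and none was called by limma in any comparison. At an unadjusted p under 0.05, 3 were lower in DSS_ICB_Fp against DSS_ICB mice, as were 12.4% of all genes, 3 were higher in DSS_ICB against DSS mice, as were 7.08%, and 0 differed in DSS_ICB_Fp against DSS mice. At least Mmp9 and Chil3 of these passed the filter through DSS_ICB mice, and nothing is read from these counts.

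The receptors of calprotectin and their partners had median changes near 0. Tlr4 averaged 4.46 FPKM in DSS_ICB_Fp, 5.03 FPKM in DSS_ICB and 4.76 FPKM in DSS mice, and Ager, which encodes the receptor RAGE and was below the filter, 0.496, 0.614 and 0.521 FPKM. The 6 receptor and partner genes tested had median changes of -0.10 in DSS_ICB_Fp against DSS_ICB mice and 0.05 in DSS_ICB against DSS mice. None was called by limma. At an unadjusted p under 0.05, only the adaptor gene Myd88 was lower in the first comparison and higher in the second. Over all genes these shares were 12.4% and 7.08%, and 0 of the 6 differed in DSS_ICB_Fp against DSS mice. Bsg, whose product binds S100A9 in humans, averaged 229.4 FPKM in DSS_ICB_Fp, 183.9 FPKM in DSS_ICB and 186.8 FPKM in DSS mice. Mcam averaged 15.5, 30.8 and 18.8 FPKM, where 1 DSS_ICB mouse was at 80.6 FPKM and the DSS_ICB median was 18.8 FPKM. Myd88, the adaptor gene of Toll-like receptors, averaged 13.6, 21.4 and 14.3 FPKM. Adaptors and near paralogs, 20 tested of 26, had medians of -0.57 and 0.38 in the same comparisons with none called. At an unadjusted p under 0.05, 12 of them were lower in DSS_ICB_Fp against DSS_ICB mice, against 12.4% of all genes. In DSS_ICB against DSS mice 4 were higher at that level, against 7.08% of all genes. The list was made with earlier results known, and at least Treml2 on it passed the filter through DSS_ICB mice. Nothing is read from these counts. Tyrobp, the Trem1 adaptor gene, averaged 24.1 FPKM in DSS_ICB_Fp, 55.6 FPKM in DSS_ICB and 32.6 FPKM in DSS mice, and Fcer1g, that of Clec4d, averaged 15.3, 38.8 and 18.0 FPKM. Il1rap, the co-receptor gene of Il1r1, averaged 1.01, 1.82 and 1.20 FPKM.

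Other S100 genes, of which 11 of 14 also lie on chromosome 3, mostly differed less than S100a8 and S100a9. The 10 tested had median changes of -0.23 in DSS_ICB_Fp against DSS_ICB mice and 0.11 in DSS_ICB against DSS mice, with none called. At an unadjusted p under 0.05, 1 was higher and 2 were lower in DSS_ICB_Fp against DSS_ICB mice, where 9.34% and 12.4% of all genes were, 3 were higher in DSS_ICB against DSS mice, where 7.08% were, and 0 differed in DSS_ICB_Fp against DSS mice. S100a4 and S100a11 had the same direction as calprotectin without passing. S100a4, a gene of motile and myeloid cells, was 19.3, 30.9, 31.4, 48.8 and 15.6 FPKM in DSS_ICB_Fp mice, 32.7, 79.9, 158.7, 86.1 and 78.7 FPKM in DSS_ICB mice and 39.0, 41.2, 54.2, 32.1 and 18.6 FPKM in DSS mice. Its log2 change was -1.49 ± 0.39 in DSS_ICB_Fp against DSS_ICB mice (limma adjusted p = 0.0854) and 1.13 ± 0.39 in DSS_ICB against DSS mice (0.418). S100a11 averaged 324.4 FPKM in DSS_ICB_Fp, 605.4 FPKM in DSS_ICB and 384.3 FPKM in DSS mice (adjusted p = 0.0951 and 0.434), and its r with the mean profile of the 8 genes was 0.77, beside 0.79 for S100a4. S100a6, expressed in many cell types, averaged 470.0 FPKM in DSS_ICB_Fp, 618.1 FPKM in DSS_ICB and 411.3 FPKM in DSS mice, and S100a10 averaged 293.0, 369.0 and 331.3 FPKM.

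**Figure D5:**
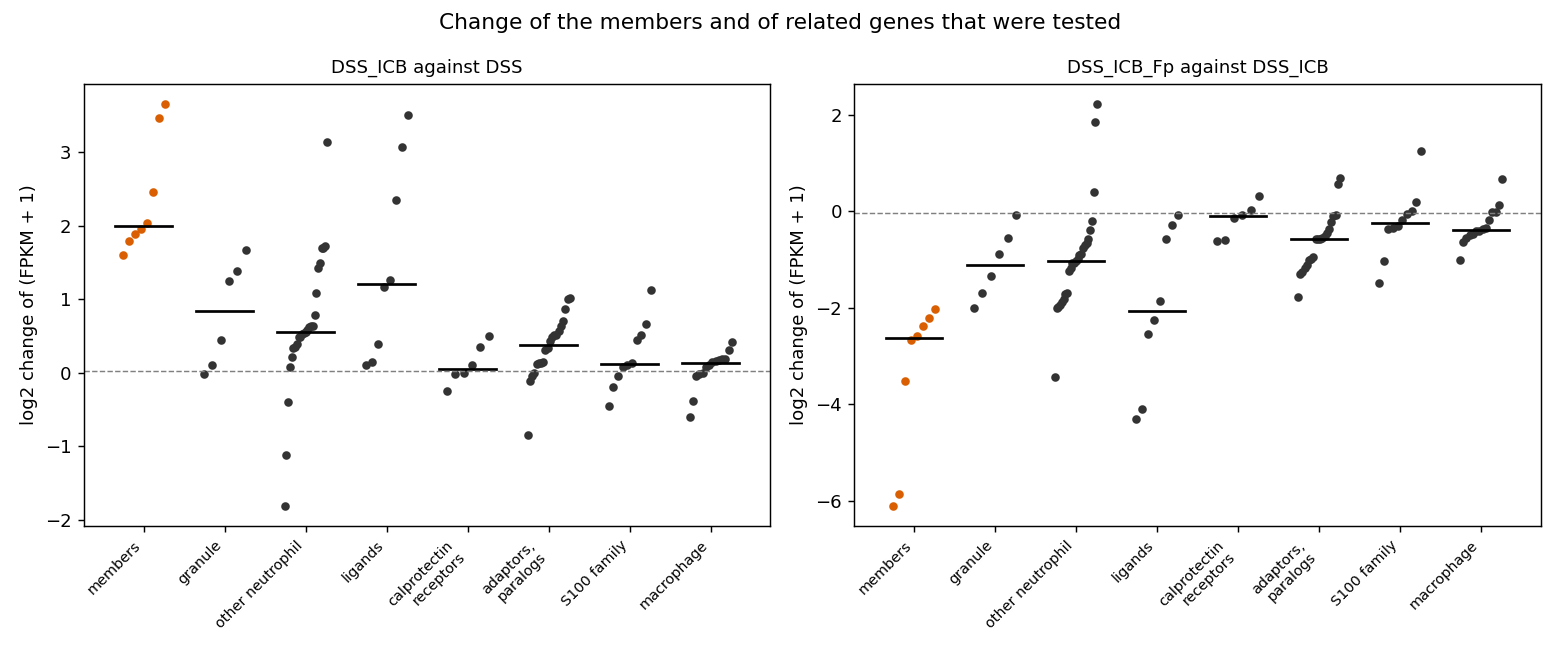
Log2 change of FPKM + 1 for the 8 genes (orange, called members on the axis) and for tested genes of 7 related lists (black), in DSS_ICB against DSS and DSS_ICB_Fp against DSS_ICB mice; each point is a gene, solid lines are list medians and the dashed line is the median of all 14385 genes. List medians run from 0.05 for calprotectin receptors and partners to 1.99 for the 8 genes on the left, and from -0.10 to -2.63 on the right.

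Markers of other cell types also moved between libraries, and their part in the results was not tested. The summed FPKM of 14 macrophage and monocyte markers, a cell type that can also express S100a8, S100a9 and Trem1, was 336.9 to 405.1 in DSS_ICB_Fp, 211.1 to 1093.4 in DSS_ICB and 397.3 to 603.1 in DSS mice, with none at 0 throughout. Its lowest and highest values were in DSS_ICB 3 and DSS_ICB 5, the mice with the highest calprotectin transcripts. All 14 were tested and none was called, with median changes of -0.39 in DSS_ICB_Fp against DSS_ICB mice and 0.13 in DSS_ICB against DSS mice. At an unadjusted p under 0.05, 1 was lower in the first of these, as were 12.4% of all genes, and 0 differed in the other comparisons. The complement genes C1qa and C1qb averaged 41.2 and 42.5 FPKM in DSS_ICB_Fp, 63.4 and 66.4 FPKM in DSS_ICB and 53.4 and 54.4 FPKM in DSS mice. Squamous epithelium, which can express calprotectin and borders the colon at the anus, was represented by 16 markers, of which Sprr1b and Sprr3 were listed at 0 in all libraries. Their sum was 6.82 to 46.2 FPKM in DSS_ICB_Fp, 19.0 to 43.9 FPKM in DSS_ICB and 14.2 to 26.1 FPKM in DSS mice, and the value of 46.2 belonged to DSS_ICB_Fp mouse 4, the mouse with the highest calprotectin transcripts of its group. Sprr1a, Krt14 and Krt13, its most abundant markers, averaged 6.65, 4.03 and 2.17 FPKM in DSS_ICB_Fp, 11.1, 9.13 and 3.87 FPKM in DSS_ICB and 6.42, 6.55 and 2.92 FPKM in DSS mice. Of the 5 tested, 2 were lower in DSS_ICB_Fp against DSS_ICB mice at an unadjusted p under 0.05, as were 12.4% of all genes. In the other comparisons 0 differed.

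The sum of 12 colon epithelium markers was 5420.7 to 6347.1 FPKM in DSS_ICB_Fp, 730.9 to 6209.4 FPKM in DSS_ICB and 5334.2 to 5903.9 FPKM in DSS mice, led by Krt8, Lgals4 and Car1. At an unadjusted p under 0.05, 2 of the 12 were higher in DSS_ICB_Fp against DSS_ICB mice and 2 lower in DSS_ICB against DSS mice. Over all genes these shares were 9.34% and 4.22%. The sum of 8 smooth muscle markers was 1446.0 to 4176.3, 1105.2 to 15153.0 and 1547.1 to 4814.5 FPKM in the same order of groups, led by Tagln, Acta2 and Actg2. DSS_ICB 3 held both the lowest epithelial and the highest muscle sum. The sum of 6 erythroid markers, led by Hbb-bs, Hba-a1 and Hba-a2, was 26.4 to 244.5, 132.8 to 1151.4 and 56.5 to 351.5 FPKM. None of the 5 tested was called, with median changes of -2.32 in DSS_ICB_Fp against DSS_ICB mice and 1.79 in DSS_ICB against DSS mice. At an unadjusted p under 0.05, all 5 were lower in the first and higher in the second, against 12.4% and 7.08% of all genes. Alas2, 1 of the 5, passed the filter through DSS_ICB mice, and nothing is read from these counts. The 9 eosinophil markers, led by Ear2, Il5ra and Ccr3 and with Epx at 0 in all libraries, summed to at most 11.1 FPKM.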

How the data were processed

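Colon RNA was sequenced from 15 mice, 5 per group by the treatment label. Per the submitters' processing notes, the authors named FastQC, STAR 2.5, Cuffnorm, DESeq and mm10. The deposited values are FPKM computed by the authors, 1 value per gene and mouse; further scaling between libraries is not stated. Gene IDs were matched to GENCODE symbols on GRCm38 (55154 of 55335). Estimated depth was 15.44 to 25.0 M (mega) fragments, from the steps of low values, of which 37.2% to 44.9% fell within 0.03 log2 of a whole step, so counts were not recovered. Counting error covers only part of the spread between mice.

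limma 3.58.1 in R 4.3.3, with trend and robust fitting, was applied to log2(FPKM + 1) of all 15 libraries, with genes at 1 FPKM or more in at least 5 libraries. Tests were two-sided with Benjamini-Hochberg adjustment. The procedure was tested on simulated data. The 8 genes, all gene lists and the choice of named genes and alternatives were made with earlier results of these data known. Named genes were the 8, the 3 highest-level genes of each list, direct partners and the 10 genes most alike in profile. Cd177, Ceacam10, Ctsg, Ngp, Prtn3, S100a4, Cxcl3, Slc26a3, Alas2, Chil3, Fpr2, Treml2 and the genes below the filter were named after their values were seen. Of 182 list genes, 181 matched. Alternatives were other scalings, pseudocounts of 0.1 and 10, other filters, 2-group fits, quality weights and left-out libraries.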

Additional observations from a re-analysis of the deposited data

Results flagged for a closer look

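S100a8 in DSS_ICB_Fp mouse 4, at 9.30 FPKM, stood apart from the other DSS_ICB_Fp mice, which were listed at 0 to 0.812 FPKM. Its gap to the nearest mouse was 0.745 of the range of the group on the log2(FPKM + 1) scale, above the critical value of 0.71 for 5 samples. Trem1 in the same mouse, at 0.328 FPKM, stood apart from 0 to 0.0533 FPKM in the other 4, with a gap of 0.817 of the range. Chance sets apart about 1 in 20 groups, and 2 of the 24 combinations of gene and group were set apart here, both by DSS_ICB_Fp mouse 4. The squamous epithelium markers of this mouse summed to 46.2 FPKM, the highest of its group, and their part in these values was not tested.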

How the results depend on the processing

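The direction of the median change over the 8 genes was the same in every alternative run, and in DSS_ICB_Fp against DSS mice 0 genes were called under each. In DSS_ICB against DSS mice, 3 genes of all tested were called. This became 0 with a pseudocount of 0.1, and 1 with a pseudocount of 10, no filter, a filter at 5 FPKM or rescaling without mitochondrially encoded genes. With only the 2 groups compared, all 3 calls were lost and 1 other gene was called, lower. The count was 0 to 7 when 1 library was left out. In DSS_ICB_Fp against DSS_ICB mice, 19 genes were called, against 42 with a pseudocount of 0.1, 5 with 10, 7 with no filter, 11 with a filter at 5 FPKM, 0 with only the 2 groups compared and 964 with array quality weights. Leaving out 1 library gave 5 to 598 (598 without DSS_ICB 1, 449 without DSS_ICB_Fp 4, 153 without DSS_ICB 2, 75 without DSS_ICB 4, 11 without DSS 2, 9 without DSS_ICB 3, 8 without DSS_ICB 5, 6 without DSS_ICB_Fp 1 and 5 without DSS_ICB_Fp 2, 3 or 5). Of the 8 genes, 5 were called there, against 0 with only the 2 groups compared, 2 with a pseudocount of 10 or no filter, 3 with median-of-ratios scaling (7 tested), without mitochondrially encoded genes or of the 3 tested at 5 FPKM, 4 with upper-quartile scaling and 8 with a pseudocount of 0.1 or array quality weights, and the cause was not tested. Cxcl2, Il1b and Ifitm1 also lost their call there with a pseudocount of 10 (adjusted p = 0.093, 0.0848 and 0.0731), no filter (0.0665, 0.0665 and 0.099) and only the 2 groups compared (0.216 each). The median change over the 8 was 1.99 in DSS_ICB against DSS mice, against 0.83 with a pseudocount of 10 and 3.47 for the 3 genes left by a filter at 5 FPKM (1.63 to 2.35 with 1 library left out). It was -2.63 in DSS_ICB_Fp against DSS_ICB mice, against -4.03 and -0.97 with pseudocounts of 0.1 and 10, -5.85 at 5 FPKM and -1.73 without DSS_ICB 3 and 5 (-2.93 to -2.27 with 1 left out). In DSS_ICB_Fp against DSS mice it was -0.76, against -2.38 at 5 FPKM (-0.93 to -0.64 with 1 left out). The median log2 ratio of S100a9 to S100a8 in DSS_ICB_Fp mice was 1.99, against 0.87 as a difference of log2(FPKM + 1). No paired analysis was possible because the mouse numbers follow the order of the samples and match no mice between groups. Low levels rest on few fragments, which limits folds in DSS_ICB_Fp mice.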

Other observations

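Of the 38 further neutrophil surface and identity genes, 13 lay below the filter, and all 13 had their highest value in DSS_ICB 3. Stfa2l1, a stefin gene, was listed at 0, 0, 0, 0.483 and 0 FPKM in DSS_ICB_Fp mice and 3.06, 2.14, 23.9, 0.914 and 14.7 FPKM in DSS_ICB mice. Hdc, which encodes the histamine-making enzyme, was 0.0482, 0.0751, 0.0959, 0.419 and 0.0405 FPKM in DSS_ICB_Fp mice and 2.63, 1.91, 18.6, 0.750 and 9.84 FPKM in DSS_ICB mice. Clec4e, which encodes the lectin receptor Mincle, is on the separate list of adaptors and near paralogs and also lay below the filter. It was 0.0673, 0.0396, 0.0805, 0.218 and 0.0220 FPKM in DSS_ICB_Fp mice and 2.32, 1.11, 7.37, 0.726 and 7.08 FPKM in DSS_ICB mice. For each of these 3 genes, DSS_ICB mice did not overlap DSS_ICB_Fp mice, and mouse 4 was the highest of the DSS_ICB_Fp group. Of the 14385 genes tested, 2.46% were lower in DSS_ICB_Fp mice with no overlap, a share that does not cover genes below the filter. Stfa2l1 and Hdc were named after their values were seen, and nothing is read from this pattern. Cxcl3, a further Cxcr2 ligand gene below the filter, was listed at 0 in all DSS_ICB_Fp mice except mouse 4 (0.355 FPKM), at 1.38, 0.342, 9.55, 0.899 and 11.6 FPKM in DSS_ICB mice and at 0.235, 0.0167, 0.0259, 0.153 and 0.236 FPKM in DSS mice.

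At the other end, Slc26a3, which encodes the chloride and bicarbonate exchanger of surface colonocytes, had an r of -0.938 with the mean profile of the 8 genes, which placed it 14385 of 14385. Without DSS_ICB 3 and 5 its r was -0.821.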
